A study of Mus musculus with 13 samples.

Results

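The adipocyte genes described here are 32 genes of fat cells and their precursors, taken from the deposited gene count table by symbol. All 32 were found among the 55357 genes of the table. By role they hold 5 genes of the lipid droplet, 4 lipases, 5 genes of triglyceride synthesis, 4 of uptake and metabolism, 4 secreted products, 2 transcription factors, 3 receptors, 2 genes tied to heat production and 3 progenitor genes.

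The tissue was mouse tail with lymphedema, a swelling that follows failed lymphatic drainage. Total RNA of 13 samples was sequenced after ribosomal RNA was depleted, 7 from the group TNTSham and 6 from the group TNTProx1. The labels date every sample to day 28 after TNT and give 12 weeks as the age. TNT was read as tissue nanotransfection, in which a short electric field moves nucleic acids into skin, and Prox1 encodes the homeobox factor that sets lymphatic endothelial identity. Every sample, sham samples included, came from lymphedema tissue after TNT, so no group shows the tail without lymphedema or without TNT. The strain, the sex, the cargo of the sham group, the way lymphedema was raised and the number of animals behind the samples were not stated in the sources used. P-values therefore measure the spread between these samples, which may be technical.

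White adipocytes store triglyceride in a single large droplet coated by perilipins, and release fatty acids from it through a chain of lipases under hormonal control. They arise from Pdgfra-positive stromal cells when Pparg and Cebpa switch on the fat program. In chronic lymphedema, adipose tissue accumulates in the swollen region alongside fibrosis and inflammation, and this is the setting in which the storage, hormone, thermogenic and progenitor genes were compared.

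The total count per library lay between 29.7M and 48.0M (M, mega). TNTProx1 4 to 6 stood apart from the other 10 libraries. Malat1, an abundant nuclear RNA, was at 3410 to 3539 CPM (counts scaled for library size and composition) in those 3 and at 8979 to 16814 CPM in the others. Mitochondrially encoded transcripts made up 1.29% to 2.11% of counts in TNTSham and 0.652% to 1.27% in TNTProx1. Xist, expressed from the inactive X chromosome of female cells, was at 2095 CPM in TNTSham 1 and at no more than 2.01 CPM in any other library.

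Fat cell transcripts were present in every library. All 5 defining markers of fat cells (Adipoq, Plin1, Cidec, Lep and Adig) were detected in all 13, with a summed level of 31.8 to 102 CPM in TNTSham and 41.2 to 96.2 CPM in TNTProx1. Of 5 brown fat markers, Ucp1 was at or near 0. The other brown fat markers, Cidea, Slc36a2, Zic1 and Kcnk3, had TNTSham means of 15.7, 11, 7.86 and 2.9 CPM. The summed level of the 5 was 22.2 to 41.4 CPM in TNTSham and 36.5 to 48.5 CPM in TNTProx1, and their cell source was not tested. Together the 32 genes took 0.182% to 0.318% of counts in TNTSham and 0.191% to 0.287% in TNTProx1. Per kilobase of transcript, the most abundant was Car3, the carbonic anhydrase of fat and muscle, at 521 CPM per kilobase in TNTSham. It was followed by Cfd at 94 and Lpl at 62.2 CPM per kilobase. In whole tissue, a change in the number of fat cells and a change in RNA per fat cell cannot be told apart.

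No adipocyte gene passed the threshold between TNTProx1 and TNTSham. In edgeR's quasi-likelihood test 0 of the 31 members that could be tested had an adjusted p under 0.05, against 0% of all 22876 genes tested. An unadjusted p under 0.05 was reached by 1 member, Adrb3, against 12.2% of all tested genes. The fitted log2 fold change, TNTProx1 over TNTSham, was above 0 for 20 members and below 0 for 11, with a median of 0.07 over the members and -0.02 over all tested genes. No member had group ranges that did not overlap, against 0.612% of all tested genes. The 95% confidence interval excluded a 2-fold difference in either direction for 27 members, and a 1.5-fold difference for 9. The intervals of Lep, Cfd, Retn and Adrb3 reached past 2-fold. DESeq2 passed 2.69% of all tested genes (13.8% at an unadjusted p under 0.05) and limma voom with library weights passed 2.50% (19.7%), and neither passed a member, although DESeq2 gave Adrb3 no adjusted p because of its low counts. At an unadjusted p under 0.05 DESeq2 had 1 member, Adrb3, and voom had 6. The 6 with voom were Adrb3 (-0.91), Slc2a4 (-0.72), Cidea (-0.54), Cebpa (-0.37) and Dpp4 (-0.31) below 0 and Pdgfra (0.34) above it.

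**Figure D1:**
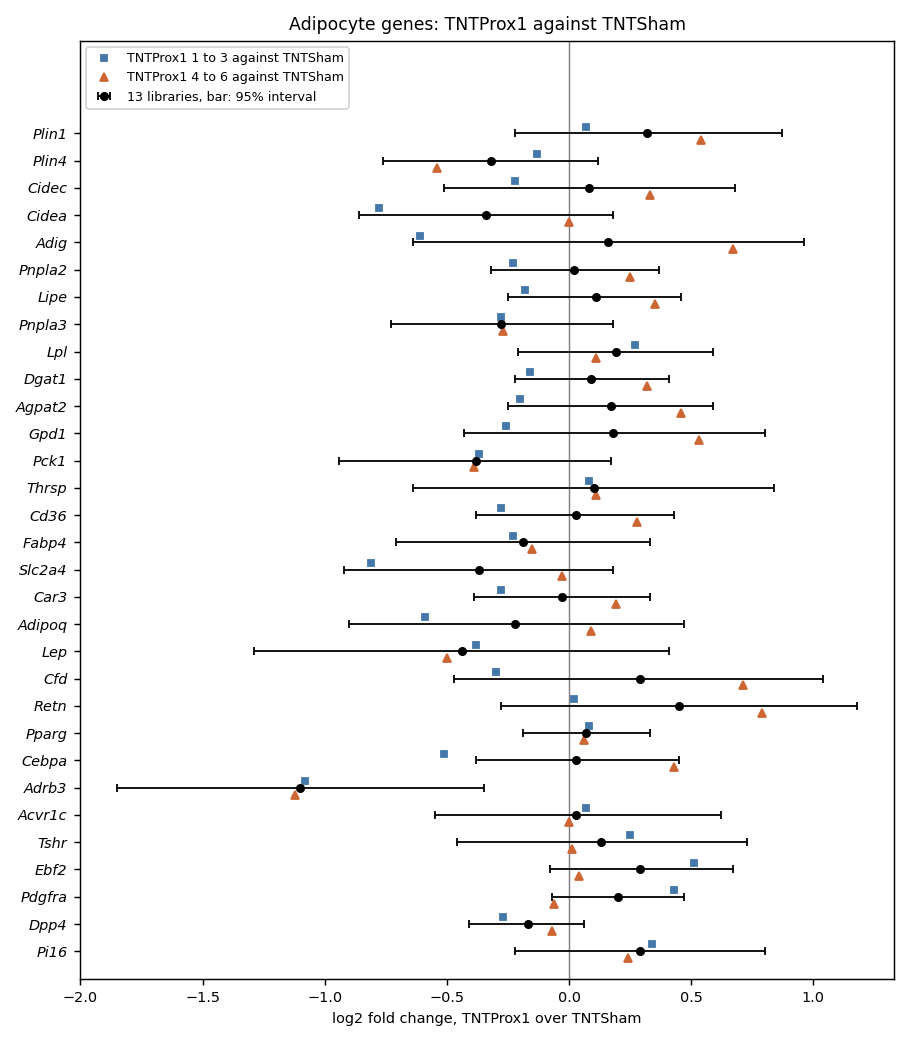
Log2 fold change of the 31 tested adipocyte genes, TNTProx1 over TNTSham, by role, with 95% confidence intervals from edgeR (horizontal axis, log2 units, black points), and the fold changes of TNTProx1 1 to 3 (squares) and 4 to 6 (triangles) alone. All intervals except that of Adrb3 (-1.85 to -0.35) include 0.

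Promoter sequences are shown for 4 members that represent the secreted hormones (Adipoq, Lep), the droplet coat (Plin1) and the progenitor state (Pdgfra), because Cebpa, whose level moved with sets of TNTProx1 libraries, belongs to the C/EBP family of fat cell factors. Each window runs from 250 bases before to 50 bases after the annotated start, 5′ to 3′ on the gene's strand, from RefSeq on GRCm38.p6, an older build than that of the counts. Capitals mark matches, on either strand, to TTGCNNAA, a core of the C/EBP motif. The windows are chr16:23146286-23146585 on the plus strand for Adipoq, chr6:29059971-29060270 on the plus strand for Lep, chr7:79732727-79733026 on the minus strand for Plin1 and chr5:75152001-75152300 on the plus strand for Pdgfra.
Adipoq: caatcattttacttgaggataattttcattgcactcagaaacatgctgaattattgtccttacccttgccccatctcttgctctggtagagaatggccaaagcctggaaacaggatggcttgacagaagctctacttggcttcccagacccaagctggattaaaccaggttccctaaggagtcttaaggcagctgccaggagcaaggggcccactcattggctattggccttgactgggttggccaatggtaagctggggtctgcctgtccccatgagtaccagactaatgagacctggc
Lep: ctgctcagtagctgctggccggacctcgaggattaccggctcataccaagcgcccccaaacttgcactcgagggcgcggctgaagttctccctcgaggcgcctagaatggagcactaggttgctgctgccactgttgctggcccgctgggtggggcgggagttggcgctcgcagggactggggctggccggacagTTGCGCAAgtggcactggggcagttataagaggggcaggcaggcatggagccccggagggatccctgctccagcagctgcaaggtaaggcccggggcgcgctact
Plin1: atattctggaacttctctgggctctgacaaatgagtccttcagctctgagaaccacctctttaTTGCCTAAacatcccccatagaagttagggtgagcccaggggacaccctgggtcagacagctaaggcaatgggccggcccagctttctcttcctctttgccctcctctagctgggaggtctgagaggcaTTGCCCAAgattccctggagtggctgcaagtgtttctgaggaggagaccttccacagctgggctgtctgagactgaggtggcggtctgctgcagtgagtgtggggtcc
Pdgfra: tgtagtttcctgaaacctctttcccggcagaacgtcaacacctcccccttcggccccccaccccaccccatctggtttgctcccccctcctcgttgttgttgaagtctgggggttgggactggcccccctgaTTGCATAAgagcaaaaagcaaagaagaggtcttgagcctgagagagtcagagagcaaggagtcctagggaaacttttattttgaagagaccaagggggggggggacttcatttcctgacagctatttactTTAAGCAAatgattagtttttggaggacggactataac
The Lep window held 1 match, starting 55 bases before the start site, and the Plin1 window held 2, at 187 and 58 bases before it. The Pdgfra window held 2 matches, 1 on each side of the start site, and the Adipoq window held 0. RefSeq windows were matched for 22 of the 32 members, 27 windows in all. Of these 18.5% held the C/EBP core, in Cidec, Lep, Pdgfra, Plin1 and Pparg, against 10.8% of all 32851 windows of that length. The half-site AGGTCA of nuclear receptors such as PPARγ was in 18.5% of member windows and 16.3% of all. The direct repeat of that half-site with 1 base between the copies was in 0 of the 27 and in 0.0396% of all. A match describes letters only and shows no binding.

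Among the lipid droplet genes, Plin1, the perilipin that coats the droplet and gates lipolysis, was at a lowest, median and highest level of 12.3, 23.7 and 36 CPM in TNTSham and 20, 29.9 and 44.5 CPM in TNTProx1. The ranges overlapped over most of their width, with TNTSham 4 lowest and TNTProx1 5 highest. This gave a log2 fold change of 0.32 ± 0.25 (SE) and an adjusted p of 0.646 in edgeR. Plin4, a perilipin of small nascent droplets, was at 89.4, 115 and 174 CPM in TNTSham and 63, 84.8 and 157 CPM in TNTProx1. Here 4 of the 6 TNTProx1 libraries lay below every TNTSham library, while TNTProx1 2 was near the top of the sham range. For Plin4 the log2 fold change was -0.32 ± 0.21 (adjusted p = 0.571).

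Cidea, which promotes droplet fusion and is most abundant in brown fat and sebaceous glands, was at 10.1, 14.2 and 21.7 CPM in TNTSham and 6.63, 11.9 and 18.3 CPM in TNTProx1. TNTProx1 1 and 2 lay below all sham libraries and the other 4 lay within their range, giving -0.34 ± 0.24 (adjusted p = 0.615). The summed level of 7 sebaceous markers was 601 to 1239 CPM in TNTSham, 327 to 685 CPM in TNTProx1 1 to 3 and 719 to 832 CPM in TNTProx1 4 to 6, and its part in the Cidea values was not tested. Cidec, the fusion protein of the large white fat droplet, ranged from 5.63 to 21.7 CPM in TNTSham and from 8.2 to 19.4 CPM in TNTProx1. Adig, a small adipocyte membrane protein, ranged from 1.19 to 3.82 and from 0.88 to 5.68 CPM. Their log2 fold changes were 0.08 ± 0.28 and 0.16 ± 0.38.

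No lipase passed the test, and 3 of the 4 had fold changes above 0. Pnpla2 (ATGL), which starts the breakdown of stored triglyceride, was at 38.8, 47.2 and 63.5 CPM in TNTSham and at 33.3, 52 and 66.1 CPM in TNTProx1. Lipe, the hormone-sensitive lipase that acts next, was at 23.7, 30.4 and 38.9 CPM and at 20, 36.1 and 41.9 CPM. For both, the lowest library of all was TNTProx1 1 and the highest was TNTProx1 5, so the treated libraries spanned the whole sham range. Log2 fold changes were 0.02 ± 0.16 for Pnpla2 and 0.11 ± 0.17 for Lipe. Lpl, which frees fatty acids from circulating lipoproteins, ranged from 177 to 319 CPM in TNTSham and from 195 to 415 CPM in TNTProx1 (0.19 ± 0.19, adjusted p = 0.718). Pnpla3, a lipid-remodelling relative of ATGL, was at 2.64, 4.97 and 8.44 CPM and at 3.75, 4.19 and 4.82 CPM, with -0.28 ± 0.21 (adjusted p = 0.64). Its 6 TNTProx1 values lay inside the wider sham range.

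Of the 5 triglyceride synthesis genes, 4 had a fold change above 0 and 1 below, with a median log2 of 0.10. Pck1, which supplies glycerol backbone through glyceroneogenesis, was at 6.07, 9.72 and 20.1 CPM in TNTSham and at 6.03, 6.91 and 12.2 CPM in TNTProx1. TNTSham 2 alone held the top of that range, and the other 12 libraries lay between 6.03 and 12.3 CPM. The log2 fold change of Pck1 was -0.38 ± 0.26 (adjusted p = 0.597), and -0.15 without TNTSham 2. Agpat2, an acyltransferase whose loss causes lipodystrophy, was at 11.1, 15.2 and 17.8 CPM and at 9.79, 16.2 and 23.2 CPM, a log2 fold change of 0.17 ± 0.20 (adjusted p = 0.76). TNTProx1 4 and 5 were above every sham library for Agpat2, and TNTProx1 1 and 3 were below. Dgat1, Gpd1 and Thrsp, which act in the last acylation, in glycerol phosphate supply and in the lipogenic response, had log2 fold changes of 0.09 ± 0.15, 0.18 ± 0.29 and 0.10 ± 0.35.

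Uptake and metabolic genes had a median log2 fold change of -0.11. Slc2a4 (GLUT4), the insulin-regulated glucose transporter of fat and muscle, was at 13.3, 19 and 32.6 CPM in TNTSham and at 9.42, 16.9 and 26.6 CPM in TNTProx1. TNTProx1 1 and 3 were below all sham libraries and TNTProx1 4 to 6 were within their range (-0.37 ± 0.26, adjusted p = 0.605). Slc2a4 and Car3 are also muscle genes: the summed level of 10 skeletal muscle markers was 9544 to 16989 CPM in TNTSham and 5139 to 12064 CPM in TNTProx1, and 9 of the 10 had a fold change below 0. Much of that sum was Ttn, with means of 8330 CPM in TNTSham and 4165 CPM in TNTProx1. With TNTProx1 4 to 6 alone the markers parted, with Ttn at -1.81 and Acta1 at 0.65. The part of muscle in the Slc2a4 and Car3 values was not tested. Fabp4, the fatty acid carrier of fat cells, capillaries and macrophages, was at 39.6, 82.7 and 131 CPM in TNTSham and at 61.8, 74.7 and 92.8 CPM in TNTProx1, so that every treated library fell inside the sham range (-0.19 ± 0.24, adjusted p = 0.779). Cd36, a fatty acid receptor of the same 3 cell types, gave 0.03 ± 0.19. Car3 was at 650 to 1322 CPM and at 620 to 1040 CPM, with a log2 fold change of -0.03 ± 0.17.

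Both hormones that distinguish fat cells best varied widely within each group. Adipoq (adiponectin) was at 8.76, 24.4 and 31.4 CPM in TNTSham and at 9.19, 21.6 and 22.9 CPM in TNTProx1. Its values fell into a lower set of 5 libraries, TNTSham 4 to 6 and TNTProx1 1 and 3, at 8.76 to 13.5 CPM, and a higher set of 8 at 21.5 to 31.4 CPM, with both groups in both sets. The log2 fold change was -0.22 ± 0.32 (95% interval -0.90 to 0.47, adjusted p = 0.812). Lep, the satiety hormone secreted in proportion to fat mass, was at 2.39, 3.74 and 9.37 CPM in TNTSham and at 1.55, 2.28 and 6.24 CPM in TNTProx1. TNTProx1 3, 4 and 6 lay below all sham libraries, while TNTProx1 2 and 5 were second only to TNTSham 2. For Lep it was -0.44 ± 0.40 (95% interval -1.29 to 0.41, adjusted p = 0.69).

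Lep per Adipoq, a ratio of 2 fat cell products that does not depend on library scaling except through the added 0.5 CPM, was also compared. The log2 ratio was -2.06 ± 0.48 (SD, n = 7) in TNTSham and -2.34 ± 0.80 (SD, n = 6) in TNTProx1, a difference of -0.28 (exact two-sided permutation p = 0.443 over 1716 splits). TNTProx1 4 and 6, at -3.42 and -3.31, lay below all other libraries, which spanned -2.67 to -1.34. Without TNTProx1 4 to 6 the difference was 0.21 (exact permutation p = 0.483), and without TNTProx1 1 to 3 it was -0.78 (exact permutation p = 0.1). The direction of this difference therefore depended on which TNTProx1 libraries were counted.

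Cfd (adipsin), the complement factor D protease, was at 41.9, 101 and 137 CPM in TNTSham and at 41.6, 119 and 151 CPM in TNTProx1. It followed the same gap as Adipoq, with 41.6 to 55.2 CPM in the lower 5 libraries and 101 to 151 CPM in the other 8 (log2 fold change 0.29 ± 0.35, adjusted p = 0.771). Retn (resistin), a hormone of mouse white fat, was at 1.37, 3.44 and 6 CPM and at 2.2, 5.38 and 7.53 CPM. TNTProx1 4 and 5 were above every sham library for Retn and TNTProx1 1 was the second lowest of the 13. Its log2 fold change was 0.45 ± 0.34 (adjusted p = 0.635).

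**Figure D2:**
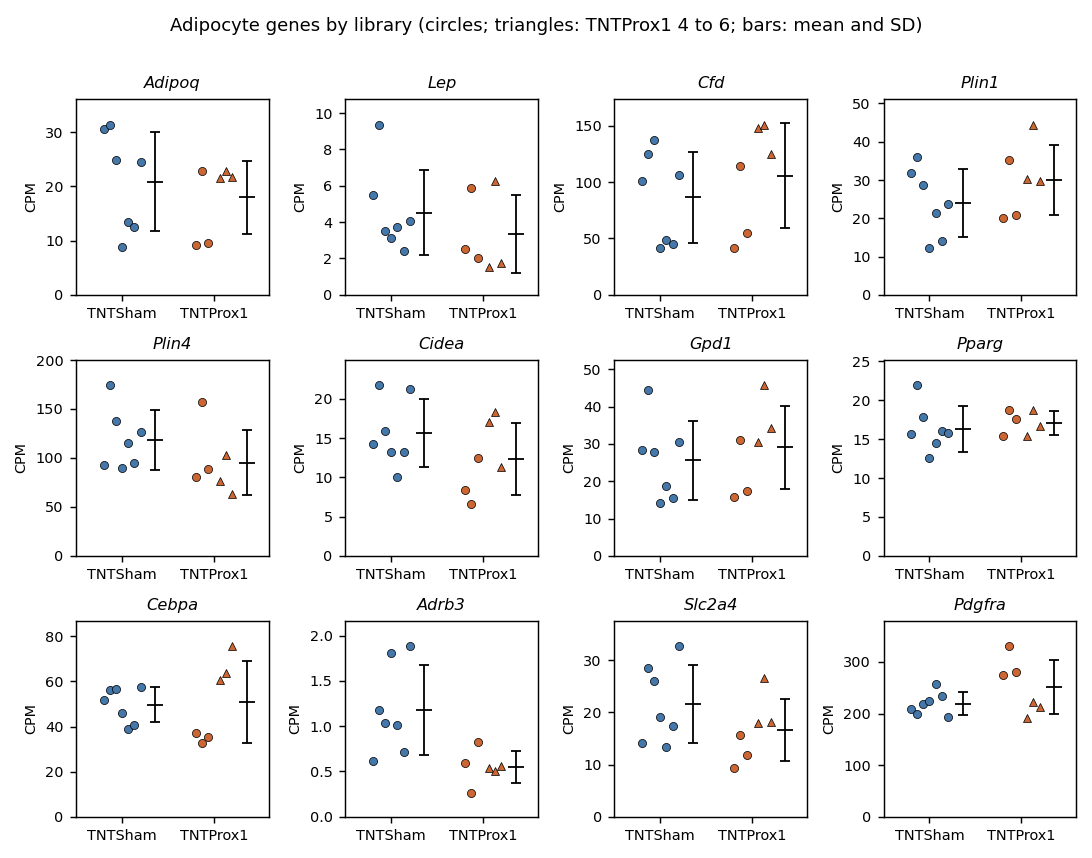
Level of adipocyte genes in each library (CPM), with TNTSham and TNTProx1 side by side, triangles for TNTProx1 4 to 6 and bars for the mean and SD of each group. The groups overlap for every gene drawn, and the Cebpa values of TNTProx1 split into 32.7 to 37.1 and 60.8 to 75.5 CPM.

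Neither transcription factor of the fat program passed the test. Pparg, the nuclear receptor needed to form and maintain fat cells, was at 12.6, 15.8 and 21.9 CPM in TNTSham and at 15.4, 17.2 and 18.8 CPM in TNTProx1, and its log2 fold change was 0.07 ± 0.12 (95% interval -0.19 to 0.33, adjusted p = 0.847). All TNTProx1 values lay inside the sham range. Cebpa, its partner in terminal differentiation, which is also expressed in epidermis and myeloid cells, was at 39, 51.9 and 57.4 CPM in TNTSham and at 32.7, 48.9 and 75.5 CPM in TNTProx1, with means of 49.8 ± 7.78 and 50.9 ± 18.1 CPM (SD). The TNTProx1 median fell between groups of libraries rather than among them: TNTProx1 1 to 3, at 32.7 to 37.1 CPM, lay below all 7 sham libraries, and TNTProx1 4 to 6, at 60.8 to 75.5 CPM, lay above all 7. The log2 fold change over all 13 libraries was 0.03 ± 0.20 (adjusted p = 0.959).

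Adrb3, the β3-adrenergic receptor through which sympathetic nerves trigger lipolysis in mouse fat, had the largest fold change of the 31 tested members. It was at 0.617, 1.04 and 1.88 CPM in TNTSham and at 0.257, 0.552 and 0.82 CPM in TNTProx1, which are 22 to 62 and 10 to 28 counts per library. Of the 6 treated libraries, 5 lay below every sham library, and TNTProx1 3 at 0.82 CPM overlapped TNTSham 1 and 6. The log2 fold change was -1.10 ± 0.35 (95% interval -1.85 to -0.35), and the adjusted p of 0.202 in edgeR did not pass. The value was -1.08 ± 0.44 with TNTProx1 1 to 3 alone and -1.12 ± 0.43 with TNTProx1 4 to 6 alone, against the same 7 sham libraries. Leaving out any single library gave -1.27 to -0.96. Adrb3 fell below the alternative filter of 1 CPM in 6 libraries, so no value was obtained there.

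Acvr1c (ALK7), a receptor that restrains lipolysis, ranged from 4.93 to 16.5 CPM in TNTSham and from 7.3 to 16.1 CPM in TNTProx1 (log2 change of 0.03 ± 0.27, adjusted p = 0.97). Tshr, the thyrotropin receptor found on thyroid cells and fat cells, ranged from 3.24 to 8.79 CPM and from 2.91 to 8.81 CPM (0.13 ± 0.28, adjusted p = 0.871). Both receptors overlapped fully between the groups.

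Ucp1, the proton channel that makes brown and beige fat produce heat, was counted 3, 7, 4, 6, 4, 1 and 5 times in TNTSham 1 to 7 and 2, 1, 0, 0, 2 and 0 times in TNTProx1 1 to 6. These were 30 counts among 257M and 5 among 243M, and 3 TNTProx1 libraries had none. A library with 0 counts allows up to 3, which is 0.0624 to 0.0982 CPM over the 13 libraries, so the TNTProx1 libraries could not be separated from a low level at this depth. Ucp1 did not pass the low-count filter. Without that filter, edgeR gave it a log2 fold change of -2.32 (95% interval -4.11 to -0.52). The unadjusted p was 0.0144 and the adjusted p 0.387 in edgeR, from very few counts. The only other thermogenic member, Ebf2, a factor that marks brown and beige precursors, was at 10.5, 13.4 and 20.1 CPM in TNTSham and at 13.9, 16.4 and 25.9 CPM in TNTProx1 (0.29 ± 0.17, adjusted p = 0.53). TNTProx1 2 alone was above the sham range.

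The 3 progenitor genes mark layers of the fat-forming stroma. Pdgfra, the platelet-derived growth factor receptor of fibroblasts and fat precursors, was at 193, 218 and 257 CPM in TNTSham and at 192, 248 and 330 CPM in TNTProx1. As with Cebpa, but in the opposite direction, the treated libraries divided: TNTProx1 1 to 3 were at 274 to 330 CPM, above every sham library, and TNTProx1 4 to 6 were at 192 to 222 CPM, within the lower part of the sham range or just below it. The log2 fold change was 0.20 ± 0.13 (adjusted p = 0.562). Dpp4 and Pi16 mark the early interstitial progenitors. Dpp4 was at 19.5, 24.9 and 28.8 CPM and at 18.3, 22.9 and 24.8 CPM (-0.17 ± 0.11, adjusted p = 0.563). Pi16 was at 106, 163 and 283 CPM and at 116, 221 and 316 CPM (0.29 ± 0.24, adjusted p = 0.662), and TNTProx1 2 alone was above its sham range. The summed level of 5 fibroblast markers, mostly Col1a1 and Col1a2, was 32512 to 58419 CPM in TNTSham and 43735 to 118913 CPM in TNTProx1. The part of fibroblasts in the progenitor values was not tested.

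The division of the TNTProx1 libraries was followed by fitting each set of 3 against all 7 sham libraries. The sets were known from all genes of these same data, not from the members or from a label, and the fits share their sham libraries. P-values from sets picked in this way are descriptions and do not test an effect of the treatment. With TNTProx1 1 to 3, no gene passed the adjusted threshold (0%), and 6 of 31 members had an unadjusted p under 0.05 in edgeR, 19.4% of members against 21.4% of all tested genes. Those were Cidea (-0.78), Slc2a4 (-0.81), Cebpa (-0.51 ± 0.14) and Adrb3 below 0, and Ebf2 (0.51) and Pdgfra (0.43 ± 0.11) above it. The smallest adjusted p-values were 0.0728 for Pdgfra and 0.0779 for Cebpa. The median over the 31 members was -0.23, with 10 above 0 and 21 below, and 0.00 over all tested genes.

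With TNTProx1 4 to 6, 29.6% of all tested genes passed the adjusted threshold and 41.2% had an unadjusted p under 0.05. Among the members 1 passed, Cebpa, which makes 3.23% of members. Its log2 fold change was 0.43 ± 0.14 in these libraries (adjusted p = 0.0303 in edgeR), against 0.03 ± 0.20 over all 13. An unadjusted p under 0.05 was reached by 7 members, 22.6%. These were Lipe (0.35), Dgat1 (0.32), Agpat2 (0.46), Retn (0.79) and Cebpa above 0, and Plin4 (-0.54) and Adrb3 (-1.12) below it. The median over the members was 0.11. That over all tested genes in this fit is not given here, so the median does not set the members apart. For 14 of the 31 members the 2 sets of libraries had fold changes of opposite sign. For those members the fold change over all 13 libraries joined values from either side of the sham mean. The same count was not made over all tested genes, so it cannot be read as a trait of the members.

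In several libraries of both groups, most tested members lay on the same side of the sham mean. These counts were not made over all tested genes, so they do not set the members apart from other genes. TNTSham 4, 5 and 6 were below the sham mean for 27, 28 and 27 of the 31 tested members, and TNTProx1 1 and 3 were below it for 29 and 25. TNTSham 2, TNTSham 3 and TNTProx1 5 were above it for 30, 26 and 25. Among all 32 members, TNTSham 4 held the lowest value of the 13 libraries for 11, and TNTSham 2 the highest for 9, the untested Ucp1 included.

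**Figure D3:**
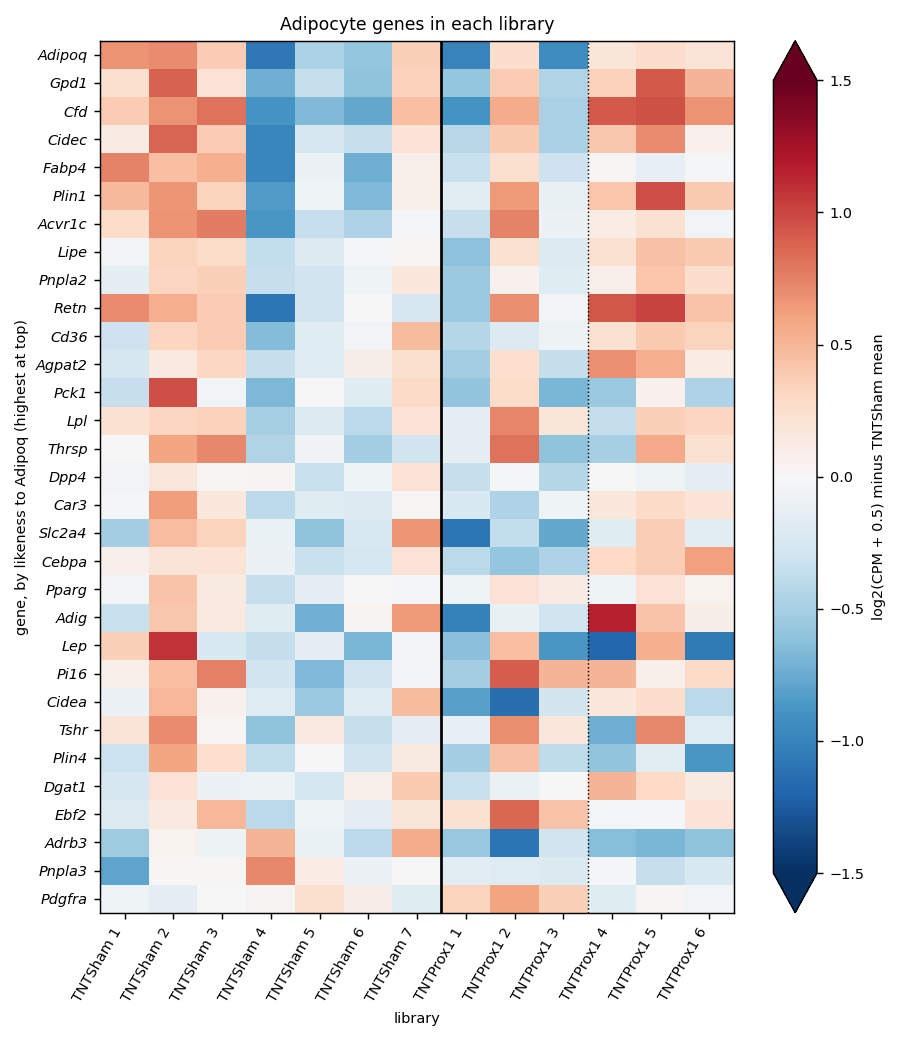
Log2 level of each tested adipocyte gene in each library relative to the TNTSham mean (colour scale in log2 units), genes in rows by likeness to Adipoq and libraries in columns. TNTSham 4 to 6 and TNTProx1 1 and 3 are below the sham mean for 25 to 29 of 31 genes, while TNTSham 2 is above it for 30.

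The gap in Adipoq was shared by 5 of the other 30 tested members, Plin1, Cidec, Gpd1, Cfd and Acvr1c, for which every library of the lower set lay below every library of the higher set, against 0.686% of all other tested genes. The other 25 members, Lep, Plin4, Cidea, Adig, Fabp4 and Lpl among them, did not divide in this way. In the 5 libraries with Adipoq at 8.76 to 13.5 CPM, Gpd1 was at 14.2 to 18.7 CPM, against 27.8 to 45.7 CPM in the other 8. Cidec was at 5.63 to 9.7 CPM against 12.2 to 21.7 CPM, and Plin1 at 12.3 to 21.5 CPM against 23.7 to 44.5 CPM. Because the libraries fell into separate sets, no correlation over all 13 is given. Within the 8 libraries with more Adipoq, 1 of 30 members, Fabp4 (r = 0.80, n = 8), had a Pearson correlation with Adipoq of log2(CPM + 0.5) of 0.7 or more, against 3.61% of all tested genes. These libraries share their scaling and their depth range, and the value is a description. Pdgfra did not follow the gap, with 224 to 280 CPM in the lower 5 libraries and 192 to 330 CPM in the other 8.

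**Figure D4:**
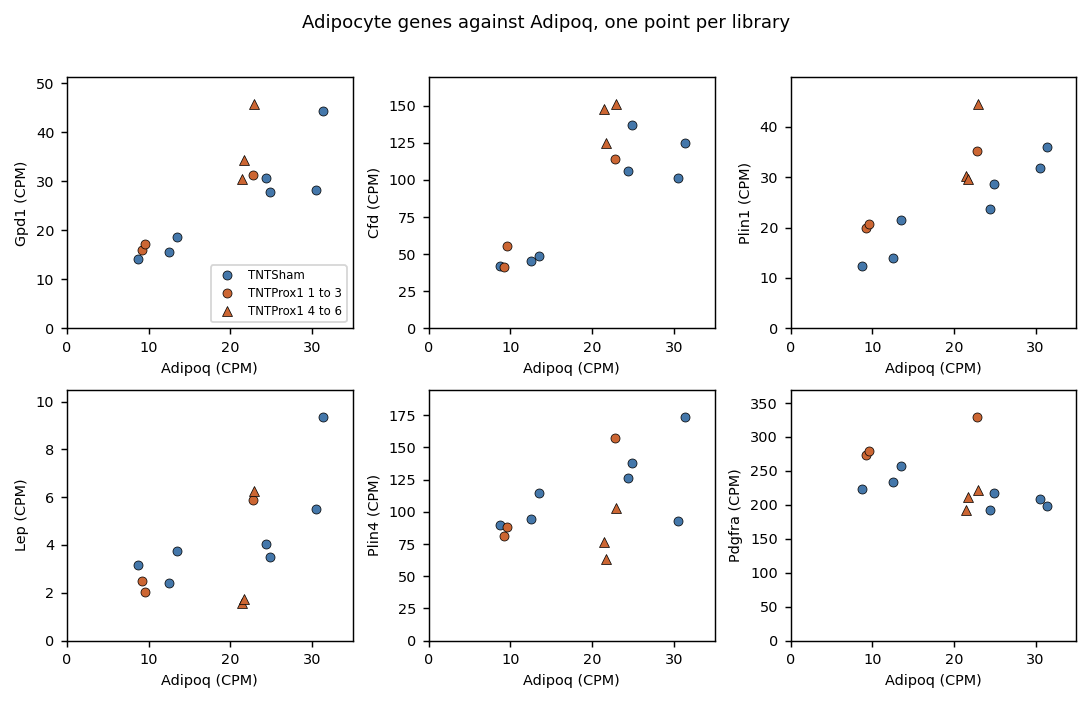
Level of 6 adipocyte genes against Adipoq (both in CPM), 1 point per library, with TNTProx1 4 to 6 as triangles. Gpd1, Cfd and Plin1 are low in the 5 libraries with Adipoq at 8.76 to 13.5 CPM and higher in the other 8, while Pdgfra is not, and Lep is low in TNTProx1 4 and 6 at 21.5 and 21.7 CPM of Adipoq.

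Outside the members, the 10 genes most like Adipoq over the 13 libraries, by the correlation that named them, were Chpt1, Tmem256, Ces1d, Pfdn5, Rpl17-ps9, Atp5l2-ps, Hpgd, Gm7730, Rpl17-ps4 and Zfp24. Chpt1 makes phosphatidylcholine, Ces1d is a carboxylesterase that hydrolyses lipid esters in fat cells, and Hpgd inactivates prostaglandins. Their likeness rested largely on the gap: within the 8 libraries with more Adipoq, r with Adipoq ran from -0.47 for Tmem256 to 0.66 for Ces1d. Reads of the pseudogenes in this list may come from their parent genes, so their identity is uncertain. RNA composition differed along the gap in TNTSham: Malat1 was at 8979 to 9314 CPM in the 4 libraries with Adipoq at 24.4 to 31.4 CPM and at 11727 to 16814 CPM in the 3 with less. In TNTProx1 this order did not hold, since TNTProx1 2, with 22.8 CPM of Adipoq, had 13304 CPM of Malat1 and TNTProx1 3, with 9.6 CPM of Adipoq, had 12666 CPM. The part of Malat1 in the Adipoq values was not tested.

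The wider fat pathways were read from lists of other genes, none of which passed after adjustment in edgeR. Where DESeq2 or voom passed a gene, the call therefore depended on the test. On simulated counts DESeq2 called 45 unchanged genes, against 3 for edgeR and 5 for voom, so calls by DESeq2 alone are less certain. The simulated counts held no set of libraries like TNTProx1 4 to 6, so these numbers need not hold for the real data. Among 10 further droplet and lipolysis genes, 0 had an unadjusted p under 0.05 in edgeR, with 6 above 0 and 4 below. Abhd5, the activator of ATGL, had -0.25 ± 0.13 (adjusted p = 0.434 in edgeR and 0.231 in DESeq2), and voom passed it at -0.47 (adjusted p = 0.0354). Against the same sham libraries, edgeR gave Abhd5 -0.55 ± 0.10 with TNTProx1 1 to 3 alone and 0.00 ± 0.09 with TNTProx1 4 to 6 alone. Bscl2 (seipin), which shapes new droplets, had 0.29 ± 0.18 (adjusted p = 0.562). Of 11 tested synthesis genes, 2 had an unadjusted p under 0.05 above 0 and 1 below, against 8.33% and 3.92% of all tested genes. The 2 were acyltransferases of the glycerol backbone, Gpat4 (45.9 ± 4.22 CPM in TNTSham and 55.5 ± 3.04 CPM in TNTProx1, adjusted p = 0.165 in edgeR, 0.0347 in DESeq2 and 0.0905 in voom) and Agpat1 (23.9 ± 2.04 and 31 ± 6.81 CPM, adjusted p = 0.263). TNTSham 1 was the only sham library to reach the TNTProx1 values of Gpat4, and the 3 highest Agpat1 libraries were TNTProx1 4 to 6. The gene below 0 was Gpam (-0.32 ± 0.12, adjusted p = 0.279), a mitochondrial acyltransferase of the same step as Gpat4. Among 9 tested genes of hormone response, such as Irs2 (-0.18) and Hcar2 (0.31), 0 had an unadjusted p under 0.05.

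Of 10 other transcription factors of fat formation, 2 had an unadjusted p under 0.05 in edgeR, both above 0, against 8.33% of all tested genes above 0, and neither DESeq2 nor voom passed any after adjustment. Cebpd, an early inducer of the program, was at 8.72 ± 1.13 CPM in TNTSham, against 13.6 ± 4.99 CPM in TNTProx1 (0.64 ± 0.20, adjusted p = 0.192), with TNTProx1 4 to 6 at 12.1 to 19.9 CPM above all sham libraries. Zfp423, a preadipocyte factor, was at 19.6 ± 2.69 and 27.1 ± 8.76 CPM (0.47 ± 0.18, adjusted p = 0.289). Among 6 genes that hold back fat formation 0 had an unadjusted p under 0.05, and the nearest were Gata3 (-0.36) and Klf2 (0.29), both with overlapping groups.

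Thermogenic genes other than the members numbered 11, of which 2 had an unadjusted p under 0.05 above 0 and 1 below in edgeR, against 8.33% and 3.92% of all tested genes. After adjustment edgeR passed 0 of the 11, whereas DESeq2 and limma voom each passed Ckb and Kcnk3. Ckb, a creatine kinase of the creatine energy cycle that is also abundant in bone-resorbing, nerve and other cells, was at 17.7 ± 5.41 CPM in TNTSham, against 52.8 ± 20.5 CPM in TNTProx1 (1.58 ± 0.29, adjusted p = 0.0848 in edgeR, 0.000128 in DESeq2 and 0.034 in voom). Of the 6 treated libraries, 5 were at 37.5 to 69.2 CPM, above the sham maximum of 26.6 CPM. Kcnk3, a potassium channel of brown fat and of vascular cells, did not overlap between groups, at 2.23 to 3.82 CPM in TNTSham, against 4.04 to 8.37 CPM in TNTProx1 (0.97 ± 0.21, adjusted p = 0.104 in edgeR, 0.00173 in DESeq2 and 0.0381 in voom). The gene below 0 was Cox7a1 (-1.17 ± 0.45, adjusted p = 0.299), a cytochrome oxidase subunit of muscle and brown fat. Ucp1 was near 0 in the same libraries. The summed level of 6 osteoblast markers was 88.9 to 663 CPM in TNTSham and 439 to 819 CPM in TNTProx1, and that of 7 capillary endothelial markers was 371 to 635 CPM and 638 to 827 CPM. Their part in the Ckb and Kcnk3 values was not tested.

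Other secreted products gave fold changes above 0 for 8 of 9 genes, of which 2 had an unadjusted p under 0.05 above 0 and 1 below in edgeR, against the same 8.33% and 3.92%. Apln (apelin), a peptide of fat cells and sprouting endothelium, was at 12.9 ± 8.97 CPM in TNTSham, against 37.4 ± 21.2 CPM in TNTProx1 (1.53 ± 0.45, adjusted p = 0.166 in edgeR, 0.0216 in DESeq2 and 0.0665 in voom). Nrg4, a growth factor secreted by brown fat and other tissues, was at 5.3 to 7.94 CPM in TNTSham, against 3.83 to 5.08 CPM in TNTProx1, with no overlap (-0.46 ± 0.14, adjusted p = 0.176 in edgeR, 0.00925 in DESeq2 and 0.0804 in voom). Angptl4, an inhibitor of lipoprotein lipase, was the other gene above 0 (0.75 ± 0.24, adjusted p = 0.217 in edgeR, 0.086 in DESeq2 and 0.046 in voom). All 7 capillary endothelial markers had a fold change above 0, 6 of them at an unadjusted p under 0.05, with a median of 0.49, and their part in the Apln values was not tested. Among 14 further progenitor genes, 5 had an unadjusted p under 0.05 above 0 and 1 below in edgeR, against 8.33% and 3.92% of all tested genes. Clec11a, a stromal growth factor for bone, was at 23.1 ± 5.18 and 37.5 ± 6.53 CPM (0.70 ± 0.16, adjusted p = 0.104 in edgeR, 0.00616 in DESeq2 and 0.0361 in voom), and Col15a1, a basement membrane collagen of committed preadipocytes and vessels, at 97.3 ± 24.8 and 157 ± 39.8 CPM (0.69 ± 0.18, adjusted p = 0.131 in edgeR, 0.0215 in DESeq2 and 0.0354 in voom). The groups of both genes overlapped. Wnt2, Pdgfrb (0.41) and Ly6a (0.28) were the others above 0 and Fmo2 (-0.53) was the one below, with adjusted p-values of 0.329 to 0.383 in edgeR. Of these 4, voom passed Pdgfrb (0.67, adjusted p = 0.0457) and DESeq2 passed none. All 10 macrophage markers also had a fold change above 0 (median 0.38, with summed levels of 1461 to 2221 CPM in TNTSham and 1704 to 2480 CPM in TNTProx1), and their part in the Fabp4, Cd36 and Cebpa values was not tested. Of these markers Csf1r, Cd68, C1qa, C1qb and C1qc had an unadjusted p under 0.05 in edgeR, and the others did not. The sets of TNTProx1 libraries differed, with C1qc at 0.18 in 1 to 3 and 0.76 in 4 to 6, and Cd68 at 0.49 and 0.29.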

How the data were processed

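Total RNA libraries of 13 mouse tail samples were analysed from raw counts per gene. Per the submitters' processing notes, the deposited counts came from reads processed with fastp 0.20.1, HISAT2 2.2.1 (build GRCm39) and featureCounts (Subread 2.0.2). DESeq2 1.34.0 and R 4.1.2 are also named there. The strand setting, annotation release and handling of multi-mapped reads were not stated in the sources used, so values of genes with close copies or overlapping neighbours are uncertain. Symbols for 52081 of 55357 identifiers, and the longest transcript length, came from GENCODE M21 and a table of gene names.

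Counts were filtered with filterByExpr (22876 genes kept), scaled by TMM and compared by the quasi-likelihood test of edgeR 4.0.16 (R 4.3.3) on group alone, with Benjamini-Hochberg adjustment over all tested genes and a threshold of 0.05. The biological coefficient of variation was 0.362. Levels are TMM-scaled CPM and group values are mean ± SD. Fold changes are log2, TNTProx1 over TNTSham, ± SE. The ratio of Lep to Adipoq used log2(CPM + 0.5). Alternatives were DESeq2 1.42.0, limma 3.58.1 (voom with quality weights), other scalings, filters and pseudocounts, and fits without single libraries or sets of 3. On simulated counts edgeR called 10 of 50 genes changed by 1.5-fold, 28 changed by 2-fold and 45 changed by 3-fold. DESeq2 called 20, 36 and 48 of these, and voom 9, 28 and 47. Unchanged genes called were 3 with edgeR, 45 with DESeq2 and 5 with voom. The upper limit from a count of 0 covers counting error only.

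The members, lists and library sets were chosen with earlier results of these data known. Named were all members, the 2 genes of smallest p in each other list and the 10 genes most like Adipoq by Pearson correlation over the 13 libraries. Gpam, Cox7a1, Angptl4, Wnt2, Pdgfrb, Ly6a, Fmo2, Slc36a2, Zic1, Ttn, Acta1, Col1a1 and Col1a2 were named after their values were seen.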

Additional observations from a re-analysis of the deposited data

How the results depend on the processing

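Adrb3 stayed below 0 in every setting that gave it a value. The number of all genes that passed was 0 with edgeR, 616 with DESeq2, 573 with voom, 1 without a low-count filter and 7047 without TNTProx1 1 to 3, and 0 to 589 when single libraries were left out (589 without TNTProx1 1). Members at an unadjusted p under 0.05 numbered 6 with voom, 6 without TNTProx1 4 to 6 and 7 without TNTProx1 1 to 3. The shares of all tested genes in these fits were 19.7%, 21.4% and 41.2%. At the same level there were 2 members without a filter, 0 with the filter of 1 CPM and 1 to 2 without single libraries. For these settings the share of all tested genes is not given, so the counts do not set the members apart. The median over the members was -0.24 with voom, which weights libraries by quality, and that over all tested genes in the voom fit is not given. The difference of the Lep to Adipoq ratio was 0.21 without TNTProx1 4 to 6, and Cebpa reached 0.43 without TNTProx1 1 to 3. Of 31 members, 16 changed sign in some setting. With voom these were Cidec -0.30, Adig -0.39, Pnpla2 -0.18, Lipe -0.16, Dgat1 -0.04, Agpat2 -0.20, Gpd1 -0.27, Thrsp -0.39, Cd36 -0.13, Cfd -0.29, Cebpa -0.37 and Acvr1c -0.10. With upper quartile scaling they were Pnpla2 0.00, Cd36 0.00 and Cebpa -0.01, both zeros being just below 0. Without TNTProx1 4 to 6 they were Cidec -0.22, Adig -0.61, Pnpla2 -0.23, Lipe -0.18, Dgat1 -0.16, Agpat2 -0.20, Gpd1 -0.26, Cd36 -0.28, Cfd -0.30 and Cebpa -0.51. Without TNTProx1 1 to 3 they were Car3 0.19, Adipoq 0.09, Acvr1c 0.00 and Pdgfra -0.06. Leaving out single libraries moved Cidec from -0.06 to 0.27, Adig from -0.20 to 0.34, Pnpla2 from -0.06 to 0.12, Dgat1 from 0.00 to 0.17, Thrsp from -0.12 to 0.26, Cd36 from -0.06 to 0.11, Car3 from -0.09 to 0.10, Cebpa from -0.11 to 0.13, Acvr1c from -0.13 to 0.18 and Tshr from -0.02 to 0.29. The cause of these changes was not tested. No paired analysis was possible because the labels give no replicate number shared between the groups. Depth limits Ucp1, with 0 to 7 counts per library, and Adrb3, with 10 to 62.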
